A study of Homo sapiens with 4 samples.

Results

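The genes described here are 8 members of the plasminogen activation system and the thrombospondin family: PLAU, PLAT, PLAUR, SERPINE2, SERPINB2, THBS1, THBS2 and THBS3. They were chosen by symbol, and each matched 1 row of a table of 48162 genes. Their mRNA was measured by RNA-seq in MDA-MB-231, a human breast cancer cell line that is triple-negative and mesenchymal, grown in serum-containing medium. The 2 vehicle control libraries came from cells given vehicle for 24 h, and the 2 MGH-CP1 libraries from cells given MGH-CP1, an inhibitor of TEAD palmitoylation, for the same time. The labels give a dose of 10 µM, while the methods give 10 mM. TEAD proteins are the DNA-binding partners of the coactivators YAP and TAZ, and the comparison asked how the transcriptome of these cells differs when TEAD lipidation is inhibited. All libraries come from 1 cell line without a stated genetic change, and nothing in the labels says that replicates were separate cultures, so p-values measure the spread between libraries, which may be technical.

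The files give FPKM, fragments per kilobase of gene length scaled to the fragments on genes of each library, which allows levels to be compared between genes. Gene-assigned fragments numbered 25455533 and 25508824 with vehicle against 17997221 and 17577930 with MGH-CP1, so both treated libraries were shallower. All 5 markers fixed for MDA-MB-231 (VIM, CD44, EGFR, AXL and CAV1) had a mean FPKM of at least 1, with a summed FPKM of 1194 and 1196 with vehicle and of 936 and 980 with MGH-CP1. VIM, EGFR, AXL and CAV1 lay lower in both MGH-CP1 libraries, and CD44 lay higher. Of 5 luminal markers, GATA3 and EPCAM had a mean FPKM of at least 1. CDH1 was below that level, with 0.289 to 0.638 FPKM, and ESR1 and PGR were near 0. The summed luminal list FPKM was 17.8 to 21.2. Leukocyte (0 of 3 markers) and fibroblast (0 of 3) lists had no gene at that level, and the endothelial marker CDH5 was listed at 0 in every library.

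As background, plasmin is a broad protease that dissolves fibrin and degrades extracellular matrix, and it circulates as the inactive plasminogen. PLAU (urokinase) and PLAT (tissue-type plasminogen activator) cleave plasminogen to plasmin. PLAUR anchors urokinase at the cell surface, and serpins such as SERPINE2 and SERPINB2 trap the activators in inactive complexes. Thrombospondins are secreted multimeric matrix glycoproteins that bind cell-surface receptors such as CD47, CD36 and integrins, and THBS1 and THBS2 are known as inhibitors of angiogenesis. In breast cancer the urokinase pathway is known for its association with invasion.

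The genes did not move as a block: PLAT and THBS3 were higher with MGH-CP1, PLAU and THBS1 were lower, and PLAUR and SERPINE2 did not pass the test. Of the 8 genes, 6 had a mean FPKM of at least 1 and were tested by limma, the moderated linear model fitted over 12080 genes, and 4 of these 6 passed an adjusted p of 0.05. Across all genes tested, 50.8% passed that threshold, 27.1% as higher and 23.8% as lower. Against that background, 4 of 6 called, with 2 in each direction, is no result about the set. THBS3 was tested only because it was high in the MGH-CP1 libraries. With the variance of each gene estimated alone, 0 of the 6 and 13 of all genes passed, and the adjusted p of the 4 genes ran from 0.0524 to 0.125. The vehicle control and MGH-CP1 libraries did not overlap for 7 of the 8 genes, 4 above and 3 below, and for 6 of the 6 tested, where the share among all tested genes was 77.2%. The median log2 fold change of the 6 was 0.10, against 0.01 for all genes tested. Exact two-sided permutation tests of single genes cannot fall under p = 0.333 with 2 libraries a condition, a value that every one of the 8 except SERPINB2 (exact p = 1) reached. In bulk RNA, a lower share of cells with a transcript and less of it per cell cannot be told apart.

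**Figure D1:**
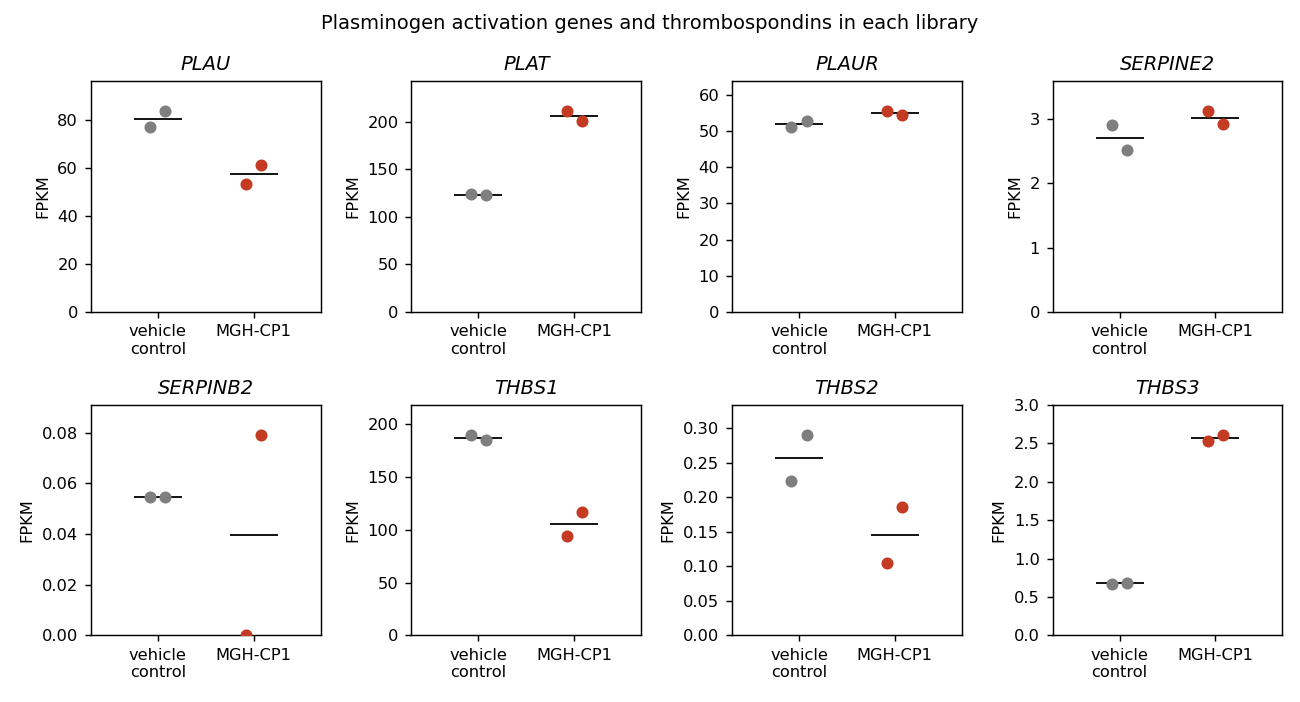
FPKM (linear axes from 0, scaled to each gene) of the 8 genes, with points for single libraries and short lines for the mean of each condition. PLAT and THBS3 lie higher in both MGH-CP1 libraries, PLAU and THBS1 lie lower, and SERPINB2 overlaps between conditions, with 1 MGH-CP1 library at 0.

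**Figure D2:**
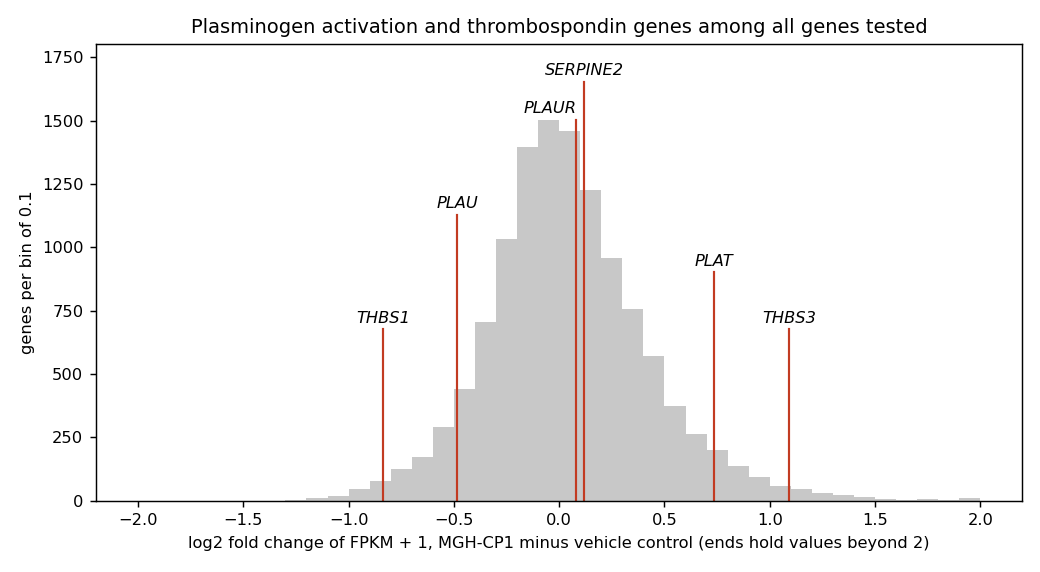
Histogram of the log2 fold change of FPKM + 1 (MGH-CP1 minus vehicle control) over the 12080 genes tested, in bins of 0.1, with vertical lines at the 6 tested genes of the set. THBS1 (-0.83) and THBS3 (1.09) lie in opposite tails, and PLAUR (0.08) and SERPINE2 (0.12) lie in the centre.

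The 2 activators moved in opposite directions. PLAU, the urokinase gene (ENSG00000122861, chromosome 10, plus strand, 75668935 to 75677255 in the coordinates of the files, hg19 per the submitters' processing notes), had FPKM of 77.4 and 83.9 with vehicle and of 53.3 and 61.4 with MGH-CP1. Both MGH-CP1 libraries lay below both vehicle libraries, and MGH-CP1 replicate 1 lay lowest. The means were 80.6 ± 4.61 and 57.4 ± 5.71 FPKM (SD, n = 2), a 1.40-fold lower level, and the log2 fold change of FPKM + 1 was -0.49 (SE 0.07, 95% interval -0.66 to -0.32, limma adjusted p = 0.00102). Of all genes tested, 6.59% fell further.

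PLAT, the tissue-type activator best known for dissolving clots in vessels, was higher with MGH-CP1. This gene (ENSG00000104368, chromosome 8, minus strand, 42032236 to 42065242) had FPKM of 124 and 123 with vehicle and of 211 and 201 with MGH-CP1. The vehicle libraries were nearly equal and lay well below both MGH-CP1 libraries. Means of 124 ± 0.768 and 206 ± 7.52 FPKM (SD, n = 2) gave a ratio of 1.67 and a log2 fold change of FPKM + 1 of 0.73 (SE 0.05, 95% interval 0.62 to 0.84, limma adjusted p = 2.79e-05). A larger rise was seen for 4.72% of the genes tested. Counted as fragments, PLAT had 10934 and 10861 with vehicle and 13177 and 12223 with MGH-CP1, so it was higher in the shallower libraries even before scaling to depth.

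The opposite directions show in the make-up of the activator pool. PLAU made up 38.4% and 40.5% of the summed PLAU and PLAT FPKM with vehicle and 20.1% and 23.4% with MGH-CP1. These shares averaged 39.5% ± 1.52 and 21.8% ± 2.32 (SD, n = 2), a difference of -17.7 percentage points that ran from -19.3 to -16.1 with any 1 library left out. The summed FPKM of the pair was 201 and 207 with vehicle and 265 and 262 with MGH-CP1. PLAT transcripts per PLAU transcript, a ratio of FPKM not planned in advance, were 1.60 and 1.47 with vehicle and 3.96 and 3.27 with MGH-CP1. Neither the share nor the ratio overlapped between conditions (exact permutation p = 0.333, two-sided, the smallest possible). The ratio is the share written another way, and both only restate the levels of PLAU and PLAT.

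PLAUR, the glycolipid-anchored urokinase receptor, differed little between conditions. Its gene (ENSG00000011422, chromosome 19, minus strand, 44150247 to 44174699) had FPKM of 51.1 and 52.9 with vehicle and of 55.6 and 54.6 with MGH-CP1. The MGH-CP1 libraries were slightly higher without overlap, but the log2 fold change of FPKM + 1 was 0.08 (SE 0.05, 95% interval -0.03 to 0.19) and did not pass the test (limma adjusted p = 0.190). The ligand was lower relative to its receptor in both treated libraries: PLAU per PLAUR, a ratio of FPKM chosen after the values were seen, was 1.51 and 1.59 with vehicle and 0.960 and 1.13 with MGH-CP1.

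The 2 inhibitors in the set were far less abundant than the activators. SERPINE2, protease nexin-1, inhibits thrombin as well as both activators, and its gene (ENSG00000135919, chromosome 2, minus strand, 224839829 to 224904036) had FPKM of 2.91 and 2.51 with vehicle and of 3.13 and 2.93 with MGH-CP1. The higher vehicle library lay just under the lower MGH-CP1 library. The log2 fold change of FPKM + 1 was 0.12 (SE 0.10, 95% interval -0.12 to 0.35) and did not pass the test (limma adjusted p = 0.359). SERPINB2, plasminogen activator inhibitor 2 (ENSG00000197632, chromosome 18, plus strand, 61538926 to 61571124), was close to undetected, with 3 and 3 fragments with vehicle and 0 and 3 with MGH-CP1. A count of 0 allows up to 3 fragments, so no difference was detectable at this depth. SERPINE2 accounted for 98.2% and 97.9% of the summed FPKM of the pair with vehicle and for 100% and 97.4% with MGH-CP1.

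**Figure D3:**
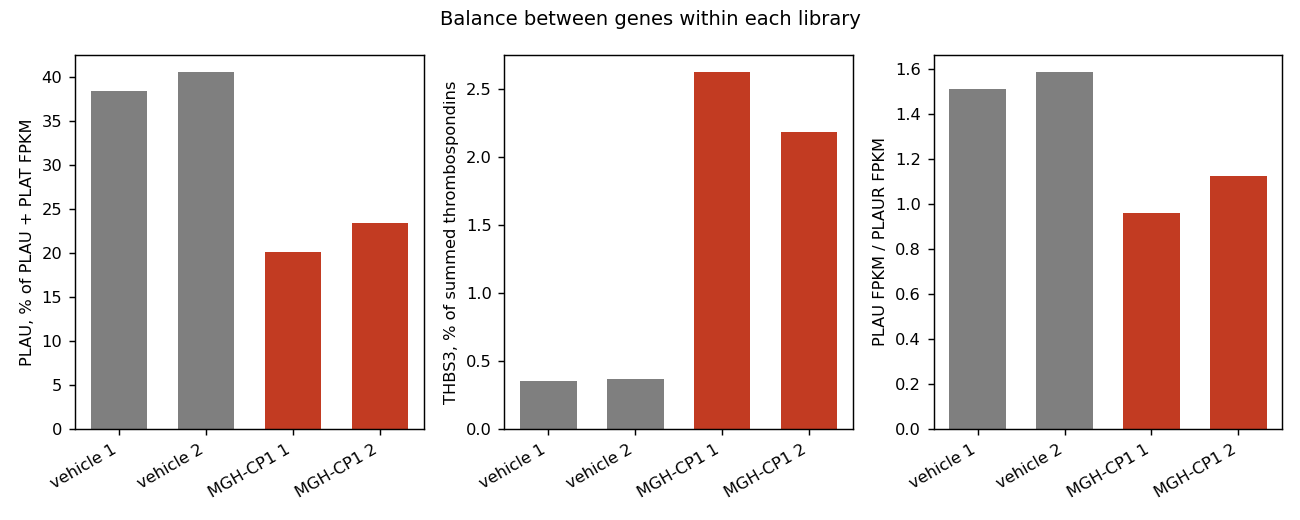
Bars give, for each library, PLAU as a percentage of PLAU and PLAT FPKM, THBS3 as a percentage of the summed thrombospondin FPKM, and the ratio of PLAU to PLAUR FPKM. The PLAU share is lower in both MGH-CP1 libraries (20.1% and 23.4%) than in both vehicle libraries, as is the ratio of PLAU to PLAUR (0.960 and 1.13), and the THBS3 share (2.62% and 2.19%) is higher.

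Among the thrombospondins, THBS1 fell, THBS3 rose and THBS2 was too low to test. Printed here, as bases 5′ to 3′ on the strand of each gene, are the 250 bases before the RefSeq starts of these genes (GRCh38.p14), shown because they could hold the CATTCC element that TEAD proteins bind. The windows are chr15:39580829-39581078 (plus strand) for THBS1, chr6:169253847-169254096 (minus strand) for THBS2, and chr1:155207898-155208147 and chr1:155209179-155209428 (minus strand) for the starts of THBS3. Capitals mark CATTCC or its reverse complement GGAATG, and TATAAA.
THBS1: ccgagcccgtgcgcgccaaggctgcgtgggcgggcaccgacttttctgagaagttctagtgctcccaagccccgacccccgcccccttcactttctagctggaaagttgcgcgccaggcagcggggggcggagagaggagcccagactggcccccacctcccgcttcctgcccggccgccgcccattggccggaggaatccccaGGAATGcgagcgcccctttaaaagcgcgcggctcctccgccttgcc
THBS2: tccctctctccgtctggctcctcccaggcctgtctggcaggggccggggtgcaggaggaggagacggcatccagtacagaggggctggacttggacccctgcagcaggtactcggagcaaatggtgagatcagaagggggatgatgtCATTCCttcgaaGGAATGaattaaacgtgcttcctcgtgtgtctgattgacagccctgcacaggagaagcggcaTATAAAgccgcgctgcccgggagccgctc
THBS3, start 1: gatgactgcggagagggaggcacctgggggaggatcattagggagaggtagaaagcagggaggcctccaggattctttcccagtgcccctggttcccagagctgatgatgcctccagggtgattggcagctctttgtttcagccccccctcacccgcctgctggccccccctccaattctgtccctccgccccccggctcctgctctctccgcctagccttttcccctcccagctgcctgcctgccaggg
THBS3, start 2: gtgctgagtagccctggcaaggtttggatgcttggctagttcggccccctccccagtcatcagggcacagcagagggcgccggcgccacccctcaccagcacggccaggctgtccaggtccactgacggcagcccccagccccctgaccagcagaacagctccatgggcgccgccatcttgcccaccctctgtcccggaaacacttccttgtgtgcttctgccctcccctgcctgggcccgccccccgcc

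The THBS1 window holds GGAATG at -46 to -41, where -1 is the last base before the start. The THBS2 window holds CATTCC at -103 to -98 and GGAATG at -91 to -86, with TATAAA at -29 to -24, and neither THBS3 window holds a match. On either strand, CATTCC occurs in 11.9% of the 35116 windows of this length in the table. The AP-1 element TGANTCA, which reads alike on both strands, occurs in 6.57% of them. The TATA box, searched as TATAAA, occurs in 10.7%, and no matches given here overlap each other. Of the remaining genes with an entry, PLAUR has TGAGTCA at -186 to -180, and SERPINB2 has TGAATCA at -102 to -96 and TATAAA at -30 to -25. No match was found in the windows of PLAU and SERPINE2. The genes with an entry were 7 of the 8, all but PLAT. A match describes letters in a window and is no measurement of binding.

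THBS1, the best known angiogenesis inhibitor of the family and an activator of latent TGF-β, was the most abundant of the 8 transcripts with vehicle. The gene (ENSG00000137801, chromosome 15, plus strand, 39873280 to 39891667) had FPKM of 190 and 185 with vehicle and of 94.0 and 117 with MGH-CP1. Both treated libraries lay far below the vehicle libraries, and MGH-CP1 replicate 1 lay lowest, as for PLAU. Means of 187 ± 3.74 and 105 ± 15.9 FPKM (SD, n = 2) gave a 1.78-fold lower level and a log2 fold change of FPKM + 1 of -0.83 (SE 0.09, 95% interval -1.04 to -0.63, limma adjusted p = 0.000197). A further fall was seen for 1.06% of the genes tested. With any 1 library left out, the log2 fold change ran from -0.99 to -0.68 and stayed past the threshold.

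THBS3, a pentameric thrombospondin known from cartilage and bone, moved the other way from a low level. Its gene (ENSG00000169231, chromosome 1, minus strand, 155165379 to 155178842) had FPKM of 0.672 and 0.680 with vehicle and of 2.54 and 2.61 with MGH-CP1. These rest on 72 and 73 fragments with vehicle and 192 and 193 with MGH-CP1, without overlap between conditions. With 2 libraries a condition, near-equal counts within each are no measure of precision. Means of 0.676 ± 0.00559 and 2.57 ± 0.0523 FPKM (SD, n = 2) gave a ratio of 3.80 and a log2 fold change of FPKM + 1 of 1.09 (SE 0.11, 95% interval 0.83 to 1.35, limma adjusted p = 0.000169), which 1.28% of the genes tested exceeded. The added 1 FPKM shrinks this value: with 0.1 FPKM added it was 1.78, and with limma voom on the recovered fragments 1.92. THBS3 passed the filter on mean FPKM only through its MGH-CP1 libraries, so its entry among the tested genes already required a higher level there, and its p-value and rank are descriptions. In the fit of all genes without a filter its adjusted p was 0.0141 (limma). It overlaps MTX1 on the opposite strand by 353 bases, and whether counting used strand is not given in the sources used here. MTX1 had 310 and 378 fragments with vehicle and 316 and 288 with MGH-CP1. Scaled to depth, its FPKM were 4.72 and 5.75 with vehicle and 6.81 and 6.35 with MGH-CP1, higher without overlap. The part of MTX1 in the THBS3 counts was not tested. Other genes whose coordinates overlap the set, namely C10orf55 at PLAU, CTD-2033D15.1 at THBS1, RP11-263K19.4 at THBS3, XXyac-YX65C7_A.2 at THBS2 and SERPINB10 at SERPINB2, had at most 13 fragments in any library.

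THBS2, the structural relative of THBS1 and likewise antiangiogenic, was scarce in these cells. This gene (ENSG00000186340, chromosome 6, minus strand, 169615875 to 169654139) had FPKM of 0.223 and 0.290 with vehicle and of 0.105 and 0.186 with MGH-CP1, from 33, 43, 11 and 19 fragments. The libraries did not overlap and MGH-CP1 was lower, but THBS2 was below the mean FPKM filter. Fitted over all genes without that filter, its log2 fold change of FPKM + 1 was -0.13 (95% interval -0.31 to 0.04, limma adjusted p = 0.251). With limma voom on fragments it was -0.84, with an interval of -1.78 to 0.11 (adjusted p = 0.198), so neither a fall nor its absence can be read at this depth. SERPINB2, treated the same way, gave -0.89 with an interval of -3.37 to 1.59 (limma voom adjusted p = 0.606).

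The summed thrombospondin FPKM was 191 and 186 with vehicle and 96.6 and 119 with MGH-CP1, nearly all of it THBS1. THBS1 made up 99.5% and 99.5% of the sum with vehicle and 97.3% and 97.7% with MGH-CP1. THBS3 made up 0.352% and 0.366% with vehicle and 2.62% and 2.19% with MGH-CP1, a difference in means of 2.05 percentage points (exact permutation p = 0.333). THBS2 made up 0.117% and 0.156% with vehicle and 0.109% and 0.156% with MGH-CP1 (exact permutation p = 0.667). The ratio of THBS1 to THBS3 FPKM was 283 and 272 with vehicle and 37.1 and 44.7 with MGH-CP1. This ratio was not planned in advance. It sets the largest fall among the tested genes of the set against the largest rise, and only restates their levels.

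Ranked by FPKM with vehicle, the 8 genes ran THBS1, PLAT, PLAU, PLAUR, SERPINE2, THBS3, THBS2 and SERPINB2, and no neighbours in this order overlapped between libraries. With MGH-CP1, PLAT passed THBS1 to lead the order, and the ranges of PLAU and PLAUR overlapped. The other places were the same. The order thus falls into 4 abundant transcripts, from 51.1 to 211 FPKM in any library, and 4 scarce ones, of which the highest value was 3.13 FPKM.

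The genes whose pattern over the 4 libraries was closest to THBS1, by Euclidean distance of centred log2(FPKM + 1) values, were TAF4B (0.0370), GINS1 (0.0477) and SLC7A1 (0.0504). Closest to THBS3 were APBB3 (0.0452), UBA7 (0.0456) and GABRE (0.0615). Their log2 fold changes of FPKM + 1 were -0.84, -0.88 and -0.84 beside THBS1 and 1.05, 1.11 and 1.14 beside THBS3. Values near those of THBS1 and THBS3 follow from selecting genes by this distance.

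Of 19 further genes of the plasminogen system, 12 were tested, and 8 were called higher, 1 (ANXA2) lower and 3 neither, with a median log2 fold change of 0.38 against 0.01 for all genes. F12, SERPINI1 and SERPINA5 passed the filter only through their MGH-CP1 libraries, so their entry already required a higher level there. The latter 2 are among those called higher, so the count and median are descriptions. The shares called over all genes tested were 50.8% in all, 27.1% higher and 23.8% lower. Without the filter on low values 4 of 17 genes were called higher and 0 lower, where 4124 of all 24878 genes were called. Quantile normalization called 4 of 12 higher and 1 lower, where 6139 of all 12080 were called. PLG, the plasminogen gene itself, was listed at 0 in every library, so these cells had the activators without detected transcript of the substrate.

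Of 4 endocytic receptors in this list, LRP1, VLDLR and MRC2 were called higher and IGF2R was not called. The share called higher over all genes tested was 27.1%. With the variance of each gene estimated alone, 0 genes of this list passed. LRP1, the large scavenger receptor, had FPKM of 3.79 and 4.06 with vehicle and of 6.03 and 6.57 with MGH-CP1 (log2 fold change of FPKM + 1 of 0.57, limma adjusted p = 0.000917). VLDLR, a relative of LRP1 that also binds these complexes, had 6.25 and 6.15 against 11.1 and 11.1 (0.75, limma adjusted p = 8.95e-05). MRC2, the collagen receptor that associates with PLAUR, had 13.4 and 14.8 against 20.1 and 19.9 (0.47, limma adjusted p = 0.000640). These 3 lay higher in both treated libraries, while IGF2R, which binds PLAUR and plasminogen, did not pass (0.08, limma adjusted p = 0.190).

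**Figure D4:**
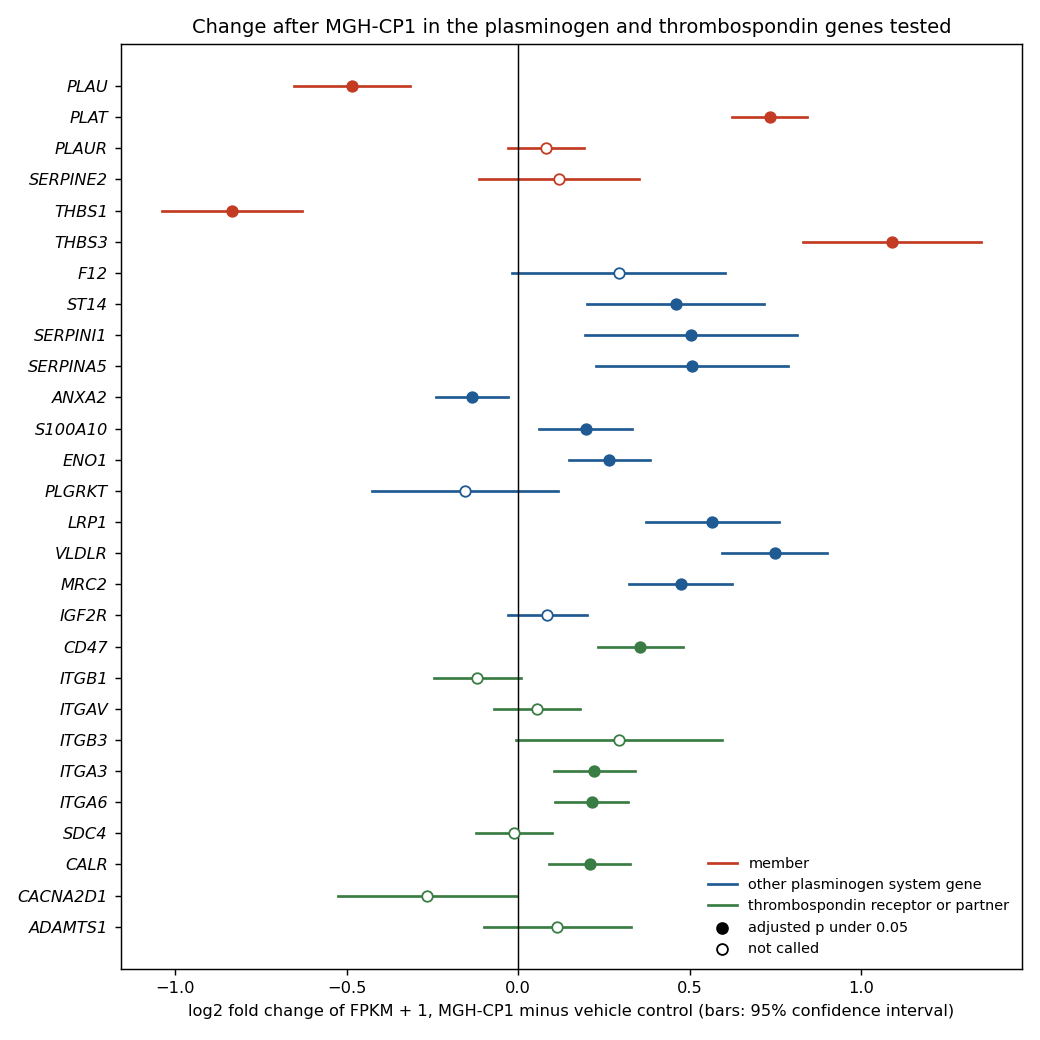
Log2 fold change of FPKM + 1 (MGH-CP1 minus vehicle control) with 95% intervals from limma for the tested genes of the set (red), the other plasminogen system genes (blue) and the thrombospondin receptors and partners (green). LRP1, which is in both lists, is drawn in blue. Filled points passed an adjusted p of 0.05 and open points did not, and among the genes drawn the largest rise and fall belong to THBS3 (1.09) and THBS1 (-0.83).

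Cell-surface plasminogen binders gave small differences. S100A10 and ANXA2, partners in a complex that binds PLAT and plasminogen, were called in opposite directions, with S100A10 at 360 and 397 against 442 and 425 FPKM (log2 fold change of FPKM + 1 of 0.20, limma adjusted p = 0.0233) and ANXA2 at 536 and 525 against 482 and 484 (-0.13, limma adjusted p = 0.0374). Both calls were lost without vehicle control replicate 1 (0.13, adjusted p = 0.0830, and -0.12, adjusted p = 0.0842), without MGH-CP1 replicate 1 (0.17, 0.137, and -0.13, 0.163) or without MGH-CP1 replicate 2 (0.22, 0.0597, and -0.14, 0.139). ENO1, a glycolytic enzyme that also binds plasminogen at the surface, was called higher (0.27, limma adjusted p = 0.00339), but quantile normalization turned it to -0.078 and the call was lost without the filter (adjusted p = 0.137). Without the filter S100A10 (adjusted p = 0.157) and ANXA2 (adjusted p = 0.148) were not called either, nor without the trend (adjusted p of 0.0741 and 0.108), and quantile normalization gave S100A10 0.091 (0.170). The plasminogen receptor gene PLGRKT was not called (-0.16, limma adjusted p = 0.301), and it went to 0.018 (0.908) without MGH-CP1 replicate 1 and to -0.33 (0.0404) without MGH-CP1 replicate 2.

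Other proteases and inhibitors of the system were scarce. ST14 (matriptase), which activates pro-urokinase, had FPKM of 1.34 and 1.31 with vehicle and of 2.06 and 2.35 with MGH-CP1 (log2 fold change of FPKM + 1 of 0.46, limma adjusted p = 0.00986). SERPINI1 (neuroserpin), an inhibitor of PLAT, was called higher (0.50, limma adjusted p = 0.0147), as was SERPINA5 (protein C inhibitor), which inhibits PLAU (0.51, limma adjusted p = 0.00926). Both passed the filter only through their MGH-CP1 libraries, with vehicle means of 0.803 and 0.738 FPKM, so these calls are descriptions. SERPINI1 lost its call without vehicle control replicate 2 (0.39, adjusted p = 0.0974) or MGH-CP1 replicate 2 (0.47, 0.0545), under quantile normalization (0.33, 0.0764) and without the filter (adjusted p = 0.0775). SERPINA5 lost it without vehicle control replicate 1 (0.49, 0.0513) and under quantile normalization (0.33, 0.0542), and ST14 without the filter (adjusted p = 0.0616). Coagulation factor XII (F12) did not pass (0.29, limma adjusted p = 0.103), except in a fit without the trend (adjusted p = 0.0398). With a vehicle mean of 0.852 FPKM, F12 too passed the filter only through its MGH-CP1 libraries.

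Of 14 further thrombospondin family members, receptors and partners, 11 were tested, with 5 called higher, 0 lower and 6 neither, and a median log2 fold change of 0.21. LRP1 is in both this list and the plasminogen list, so its call is counted in each. The 5 of 11 lie near the 50.8% called over all genes tested, of which 27.1% were higher. The count was 3 of 14 without the filter, where 4124 of all 24878 genes were called. Limma voom called 6 of 11 higher and 2 lower, where 6590 of all 12080 genes were called. CD47, the signalling receptor of THBS1, had FPKM of 20.2 and 20.1 with vehicle and of 26.5 and 25.7 with MGH-CP1 (log2 fold change of FPKM + 1 of 0.36, limma adjusted p = 0.000993). It was thus higher in the condition with less THBS1. The other known receptor CD36 stayed at or below 0.081 FPKM in every library, and the family members THBS4 and COMP were near 0.

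Integrin subunits through which thrombospondins can bind cells gave mixed results. ITGA6 was called higher (log2 fold change of FPKM + 1 of 0.21, limma adjusted p = 0.00579), as was ITGA3 (0.22, 0.00792), whose call was lost without MGH-CP1 replicate 2 (0.19, 0.0677), under quantile normalization (0.082, 0.169) and without the filter (adjusted p = 0.0807). ITGB1 (-0.12, limma adjusted p = 0.104), ITGAV (0.06, 0.419) and ITGB3 (0.29, 0.0943) did not pass, though ITGB1 did without vehicle control replicate 2 (-0.17, 0.0240), under limma voom (-0.12, 0.0216) and with a replicate block (adjusted p = 0.0498). ITGB3 passed under limma voom (0.56, 0.0232) and without the trend (adjusted p = 0.0332). With a vehicle mean of 0.904 FPKM, ITGB3 passed the filter only through its MGH-CP1 libraries, so these calls are descriptions. Another entry of ITGB3 (ENSG00000259753) had 0 fragments in every library. CALR, the chaperone that also acts as a surface co-receptor of THBS1, was called higher (0.21, limma adjusted p = 0.0102). Its call was lost without MGH-CP1 replicate 1 (0.21, 0.0655) or 2 (0.21, 0.0595), under quantile normalization (0.038, 0.595), and without the filter (adjusted p = 0.109). The heparan sulfate proteoglycan SDC4 (-0.01, limma adjusted p = 0.839), the calcium channel subunit CACNA2D1, a receptor of thrombospondins (-0.26, 0.0850), and the protease ADAMTS1, which cleaves THBS1 and THBS2 (0.11, 0.336), did not pass. CACNA2D1 was called lower under quantile normalization (-0.43, 0.0164), without the trend (adjusted p = 0.0155) and under limma voom (-0.45, 0.00640).

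Of 13 further clade B and clade E serpins, the families of SERPINB2 and SERPINE2, 4 were tested, with 3 called higher, 0 lower and 1 neither, and a median log2 fold change of 0.38, beside 50.8% called and 27.1% called higher over all genes tested. Quantile normalization and a fit without the trend each called 1 lower. SERPINB1, an inhibitor of neutrophil proteases, had FPKM of 72.5 and 72.8 with vehicle and of 116 and 118 with MGH-CP1 (log2 fold change of FPKM + 1 of 0.68, limma adjusted p = 3.00e-05). SERPINB6, an intracellular inhibitor, had 56.9 and 54.9 against 76.0 and 70.7 (0.38, limma adjusted p = 0.000724). SERPINB9, the inhibitor of granzyme B, had 53.8 and 49.7 against 68.6 and 66.2 (0.37, limma adjusted p = 0.000894). All 3 lay higher in both treated libraries, from levels far above those of SERPINB2 and SERPINE2.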

How the data were processed

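RNA was purified with the RNeasy kit, poly-T selected and sequenced as 150 bp paired ends. The authors deposited FPKM per gene, and the submitters' processing notes name CASAVA 1.8, STAR and hg19; the counting tool and annotation are not given in the sources used here. FPKM were divided by the value of 1 fragment to recover fragments (100% of values within 0.01 of a whole number), which gives the depth and serves limma voom. Genes averaging under 1 FPKM were dropped, which left 12080, and log2(FPKM + 1) of the rest was fitted by limma 3.58.1 (R 4.3.3; eBayes with its trend option; prior df 5.97; two-sided). Benjamini-Hochberg adjustment covered all 12080 genes, and calls needed an adjusted p under 0.05. The fit was tested on simulated data. Shares and ratios were compared with exact permutation tests in scipy 1.17.1 (Python 3.11.15, numpy 2.4.6, pandas 2.3.3). Promoter windows came from a RefSeq table of GRCh38.p14, and were not mixed with the coordinates of the files.

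The genes and lists were chosen with earlier results of these data known. Named were all 8 genes, every gene of the plasminogen and thrombospondin lists with a mean FPKM of at least 1, the 3 serpins of highest mean FPKM, and for the largest fall and rise the 3 closest patterns. In the lists, VTN had no row in the table used, and 1 gene, taken out of the lists for a reason unrelated to its values, is not reported here. Replicates were not identical: log2 values differed with an SD of 0.150 between the vehicle libraries and 0.160 between the MGH-CP1 libraries. The alternatives were an added 0.1 FPKM, no filter, a stricter filter at 5 FPKM, scaling by median ratios, quantile normalization, no trend, no variance shared between genes, limma voom, a replicate block and each library left out.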

Additional observations from a re-analysis of the deposited data

How the results depend on the processing

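With each gene's variance estimated alone, 13 of all genes were called in place of 6142 (4947 at an unadjusted p under 0.05), so 0 of the 8 genes, 0 plasminogen, 0 thrombospondin and 0 serpin genes passed, against 4, 9, 5 and 3. Without a filter on low values 4 plasminogen and 3 thrombospondin genes were called, beside 4124 of all 24878 genes. Quantile normalization called 5 plasminogen genes (6139 of all genes) and limma voom on fragments 8 thrombospondin genes (6590 of all genes). With 1 library left out, the lone library being assumed to vary like the others, 3 to 6 thrombospondin genes were called, and 4 of the 8 genes each time. Log2 fold changes that reversed were those of ENO1 (-0.078, quantile normalization), PLGRKT (-0.33 to 0.018 with 1 library left out) and SDC4 (-0.043 to 0.017). Of 406 alternative values of single genes, 345 kept direction and call, 46 lost and 12 gained the call. At a mean FPKM of at least 5, SERPINE2 and THBS3 are not tested. The labels do not pair the replicates, and the deviations of same-numbered libraries correlated at 0.0777 over 12080 genes; a replicate block called 6518 genes, 4 of the 8 genes, and 9 plasminogen, 6 thrombospondin and 3 serpin genes. The ratio of PLAU to PLAUR and the unfiltered voom values were chosen after seeing the data. The other ratios, the summed FPKM and the alternative settings for the shares were not planned in advance either. Depth limits SERPINB2 and THBS2.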
